A study of Mus musculus with 6 samples.

Results

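The genes described here belong to TGF-β, BMP and SMAD signalling and were chosen by name: 54 genes for ligands, receptors, secreted antagonists, SMADs and Id target genes. Of these, 46 were found by symbol among the 19078 genes of the authors' deposited table, and *Bmp1*, *Bmp2*, *Bmp3*, *Gdf6*, *Gdf10*, *Nog*, *Grem1* and *Id4* were not analysed here. The table was made from mRNA of mouse immortalized fibroblasts (MF), with *Ms4a15* OE and 3 control libraries. According to the study's methods, both groups descend from embryonic fibroblasts that carry a conditional *Gpx4* knockout and Cre-ERt2, a recombinase switched on by tamoxifen. *Gpx4* encodes a peroxidase that guards against ferroptosis, and no label states that tamoxifen was given to these cells. *Ms4a15* OE cells are a pooled line in which a guide directs a CRISPR activation system to *Ms4a15*, the gene of a tetraspanin found in a screen for ferroptosis resistance. Control cells are called wild type in the labels and are described in the study's methods as infected with empty lentivirus.

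One value per gene was used, the mean of normalized counts over all 6 libraries with both groups pooled. Normalized counts are reads on a gene divided by the size factor of the library, which corrects for depth. Counts of each library were not used here. No spread between replicates can thus be given, *Ms4a15* OE is not compared with control, and a level is that of the fibroblasts of both groups together. For *Ms4a15* itself the mean was 638 normalized counts, which does not show how it was divided between the groups. A limit on each group follows from the pooled mean all the same. As the groups are of equal size and no count is negative, neither group's mean can exceed 2 times the pooled mean, and the higher group's mean is at least as high as the pooled mean.

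TGF-β family ligands are secreted dimers that bring together type II and type I receptor kinases at the cell surface. The type II receptor phosphorylates the type I receptor, which phosphorylates receptor-regulated SMADs, and these join SMAD4 and enter the nucleus. TGF-β and activin act mainly through SMAD2 and SMAD3, and BMPs mainly through SMAD1, SMAD5 and SMAD9. Id genes are classical BMP targets, and in fibroblasts TGF-β is known for driving the synthesis of extracellular matrix.

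Depth was read from the table itself. A gene with 1 read in a single library can take 6 possible means, and 1267 genes had one of these. They give size factors from 0.887 to 1.14, so the deepest library was 1.28 times the shallowest. A floor of 3 counts in every library corresponds to a pooled mean of 3.01 normalized counts. Among listed genes 75.8% were above this floor, and the same held for 39 of the 46 pathway genes, or 84.8%. The counting error was 20.03% for the lowest pathway gene above the floor and at most 1.27% for those with a mean of at least 1000. The labelled cell type was checked against markers. Of 13 listed fibroblast markers 12 were above the floor, from *Dcn* at 12.1 to *Col1a2* at 135155 normalized counts, while *Lum* was under it. Of 11 epithelial markers 3 were above it, with *Krt14* highest at 170.4, and of 7 endothelial markers 2, with *Cdh5* highest at 107. Of 6 myeloid markers 5 were above the floor, from *Itgam* at 5.79 to *Lyz2* at 534 normalized counts. *Epcam*, which defines epithelial cells, was at 0.176. The summed means were 476337 for the fibroblast, 192 for the epithelial, 126 for the endothelial and 728 for the myeloid list. The part of other cells in the levels below was not tested.

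Before any scaling by length, most pathway genes had a pooled mean above the median of all listed genes. The median of the 46 pooled means was 1066 normalized counts, against 237 for all listed genes, and the median pathway gene was higher than 65.9% of listed genes. Division by exon length was possible for all 46 pathway genes and for 14655 listed genes, or 76.8%. The medians were then 167 normalized counts per kilobase of all exons for pathway genes and 121 for these 14655 genes. Both medians were closer together than before, but the set of listed genes had also changed. How much of this came from the length was not tested. A mean of at least 1000 was found for 24 pathway genes, or 52.2%, against 35.0% of all listed genes. At the other end, 7 pathway genes, or 15.2%, were at or under the floor, against 24.2% of listed genes. The pathway genes together took 0.205% of all normalized counts. These shares describe the list, whose members were picked by name, and no test was made on them.

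**Figure D1:**
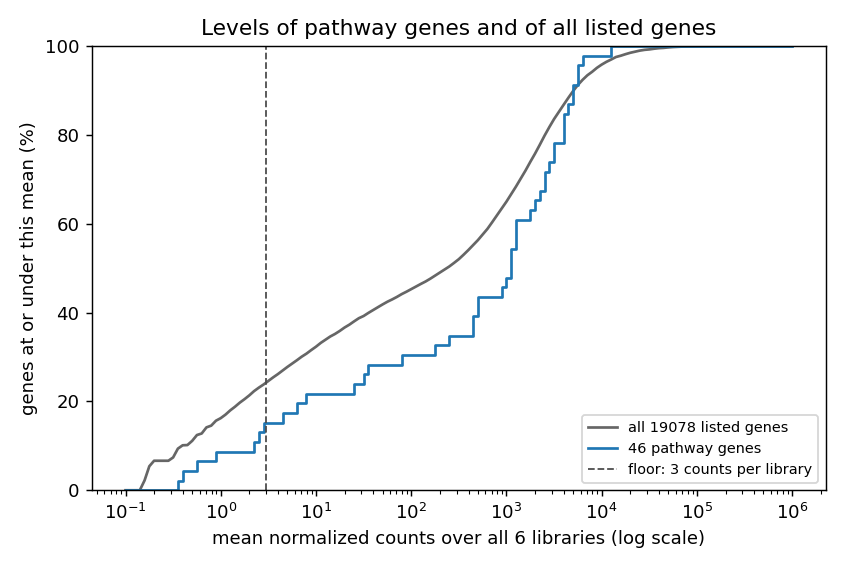
The share of genes (%) at or under a given mean of normalized counts over all 6 libraries (log axis), for the 46 pathway genes and for all 19078 listed genes. At the floor of 3.01, marked by the dashed line, 15.2% of pathway genes and 24.2% of listed genes lie at or under it, and the pathway curve lies to the right of the other over most of the range.

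The intracellular part of the pathway was present in full among the genes listed, and the secreted part was uneven. All 5 receptor-regulated SMADs, *Smad4*, both inhibitory SMADs, both SMURF ubiquitin ligases, both SKI family co-repressors and the 3 listed Id genes had means between 411 (*Smad6*) and 6135 (*Id3*) normalized counts. The genes at or under the floor were the ligand genes *Bmp6*, *Bmp7*, *Gdf15* and *Inhbb*, the antagonist genes *Chrd* and *Fstl3*, and the type I receptor gene *Bmpr1b*. For *Bmp6*, *Bmp7* and *Bmpr1b* the largest possible group means were 4.01, 5.09 and 4.55 normalized counts. A group may thus have been above the floor for these genes, which the pooled mean cannot show.

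**Figure D2:**
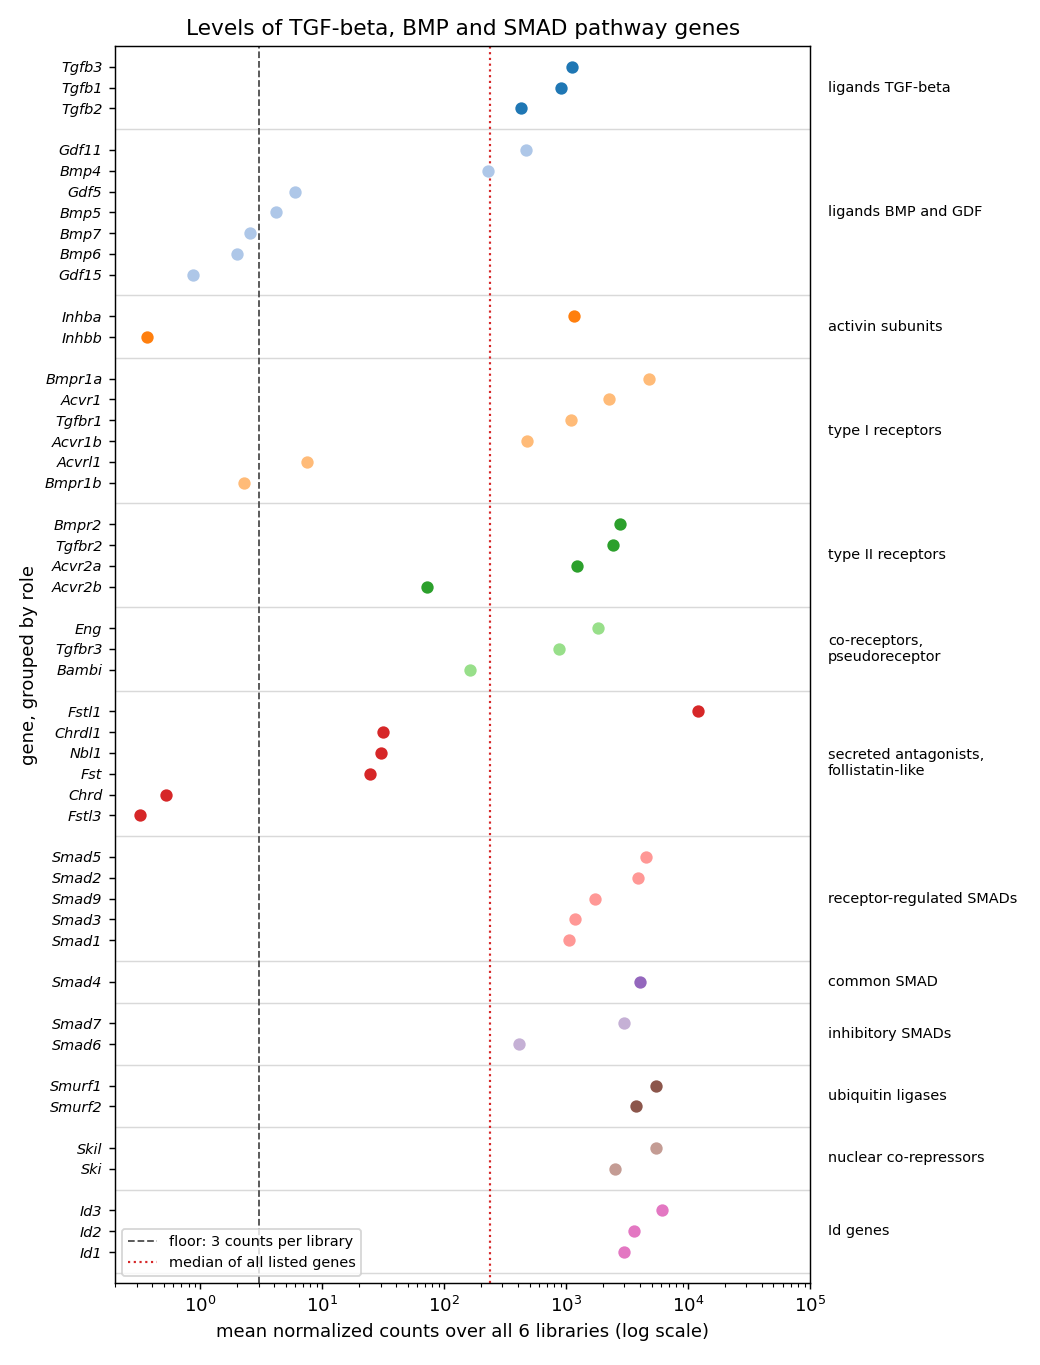
Mean normalized counts over all 6 libraries (log axis) for each of the 46 listed pathway genes, grouped by role, with a point per gene. The dashed line marks the floor of 3.01 and the dotted line the median of all listed genes, 237. SMADs, SMURFs, co-repressors and Id genes all lie to the right of the dotted line, while ligands and antagonists extend to both sides of the floor.

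To compare levels between genes, each pooled mean was divided by the length of the gene's exons. All 46 listed genes had a length in the GENCODE annotation of GRCm38, the assembly also called mm10. Levels scaled in this way are given below as normalized counts per kilobase, of all exons unless the longest transcript is named. They carry no error between libraries, and the order of genes at similar levels can change with the length used.

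All 3 TGF-β ligands, which share their receptors, were expressed. *Tgfb3* had a pooled mean of 1116 normalized counts, *Tgfb1* 903 and *Tgfb2* 428. Per kilobase of exon these came to 329.8, 179 and 73.9. *Tgfb3* thus took 56.6% of the summed level of the 3 genes. The order of the first and second is not settled, because *Tgfb3* was 1.84-fold higher than *Tgfb1* per kilobase of all exons but 0.940-fold as high per kilobase of the longest transcript. *Tgfb2* was the lowest of the 3 under both lengths and without scaling. *Tgfb1* lies on chromosome 7 from 25687002 to 25705077, *Tgfb2* on chromosome 1 from 186622792 to 186705989 and *Tgfb3* on chromosome 12 from 86056745 to 86079041. Annotated exons on the other strand cover 12.4% of the exon bases of *Tgfb3*. The libraries were strand-specific according to the labels, while the study's methods do not state whether they were. The strand setting of the counting was not given in the sources used here.

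Among the 7 listed BMP and GDF ligands, *Gdf11* and *Bmp4* stood well above the rest. *Gdf11*, which signals through activin receptors, had a mean of 468 normalized counts (115 per kilobase). *Bmp4*, a ligand of BMP type I receptors, had a mean of 228 (102 per kilobase), close to the median of all listed genes. The next, *Gdf5* and *Bmp5*, known from joint and skeletal development, were at 6.01 and 4.16, just above the floor. For these, annotated exons on the other strand cover 40.3% and 46.7% of exon bases. A part of their few reads may thus not be their own where strand was not used in counting.

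The remaining listed BMP and GDF ligands were at or under the floor. Their means could be taken apart into whole reads, with a single solution for each gene. *Bmp7* had 15 reads in 4 of the 6 libraries and *Bmp6* 12 reads spread over all 6. *Gdf15*, a ligand induced by cellular stress in many tissues, had 5 reads in 4 libraries, with an exact 95% Poisson interval from 1.62 to 11.7 reads that covers counting error only. Its pooled mean was 0.867 normalized counts, so neither *Ms4a15* OE nor control cells can have had a mean above 1.73. *Gdf15* was hence under the floor in both groups.

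Of the activin subunits, *Inhba* was expressed and *Inhbb* was all but absent. *Inhba*, the gene of the βA chain that forms activin A, had a mean of 1148 normalized counts (179.7 per kilobase). Per kilobase of all exons this was near *Tgfb1* at 179, but per kilobase of the longest transcript *Inhba* stayed at 179.7 and *Tgfb1* was at 351. *Inhbb*, the gene of the βB chain, had 2 reads in 2 libraries and a mean of 0.366. The mean of *Inhbb* in either group was therefore at most 0.731.

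Type I receptors, the kinases that phosphorylate SMADs, were led by those for BMPs. *Bmpr1a* had a mean of 4780.3 normalized counts (753 per kilobase), higher than 89.2% of listed genes, and took 50.4% of the summed level of the type I receptors. *Acvr1*, which binds BMPs and activins, followed with 2233 (462 per kilobase). *Bmpr1a* was 1.63-fold higher than *Acvr1* per kilobase of all exons and 1.18-fold per kilobase of the longest transcript. *Tgfbr1*, the type I receptor for TGF-β, had a mean of 1088 (166 per kilobase), and *Bmpr1a* was 4.52-fold higher. *Acvr1b*, the activin type I receptor, had a mean of 480.4 (109 per kilobase).

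The other 2 type I receptors were near the floor. *Acvrl1*, known as the endothelial receptor ALK1, had a mean of 7.56 normalized counts (1.77 per kilobase). *Bmpr1b* had 15 reads, all within 3 of the 6 libraries and 9 of them in a single library, and a mean of 2.27. *Acvrl1* and *Acvr1b* lie beside each other on the forward strand of chromosome 15, from 101128522 to 101145336 and from 101174067 to 101213684. Their levels were far apart, at 7.56 against 480.4 normalized counts.

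All 4 type II receptors were above the floor. *Tgfbr2*, the receptor that binds TGF-β first, had a mean of 2427 normalized counts (296 per kilobase). *Bmpr2*, which serves BMPs, had the higher mean of 2777 but a longer transcript, and reached 154 per kilobase. The activin receptor gene *Acvr2a* had a mean of 1227 (216 per kilobase) and its paralog *Acvr2b* 72.8 (18.5 per kilobase), an 11.6-fold difference per kilobase. *Tgfbr2* took 43.3% of the summed level per kilobase. It was 1.92-fold higher than *Bmpr2* per kilobase of all exons, 1.39-fold per kilobase of the longest transcript and 0.874-fold as high without scaling. *Bmpr2* and *Acvr2a* were at nearly equal levels per kilobase of the longest transcript, with a ratio of 0.998.

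Genes of proteins that present or block ligands at the membrane differed in mRNA level. *Eng*, the TGF-β co-receptor endoglin best known from endothelium, had a mean of 1808 normalized counts (447 per kilobase). The endothelial markers *Pecam1* and *Cdh5* were at 15.9 and 107 normalized counts in the same libraries. *Tgfbr3*, the gene of betaglycan, which presents TGF-β2 to its receptors, had a mean of 865 (132 per kilobase). *Bambi*, a pseudoreceptor without a kinase domain, was lowest of the 3 with 161 (31.8 per kilobase). Of the 46 genes, *Tgfbr3* was the one with stretches of 100 bases that another gene's transcript also holds, 3.34% of its longest transcript, shared with *Gm43422*.

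Of the 6 listed genes of secreted antagonists and follistatin-like proteins, 5 had means from 0.323 to 31.7 normalized counts, and *Fstl1* was far above them. *Fstl1*, a follistatin-like glycoprotein of mesenchymal cells, had the highest mean of all 46 genes, 12107 normalized counts, above 96.8% of listed genes. Per kilobase of all exons *Fstl1* was at 2464, under *Id1* at 2585, and per kilobase of the longest transcript it was above *Id1*, at 3195 against 2585. It lies on chromosome 16 from 37776873 to 37836514 and took 99.0% of the summed level of its group. *Chrdl1*, *Nbl1* and *Fst*, whose products bind BMPs or activins outside the cell, had means of 31.7, 30.5 and 24.5. *Chrd*, the gene of the BMP antagonist chordin, had 3 reads in 2 libraries. *Fstl3* had 2 reads in 2 libraries, and 47.3% of its exon bases are covered by annotated exons on the other strand. Neither *Chrd* nor *Fstl3* can have had a mean above 1.04 in either group.

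**Figure D3:**
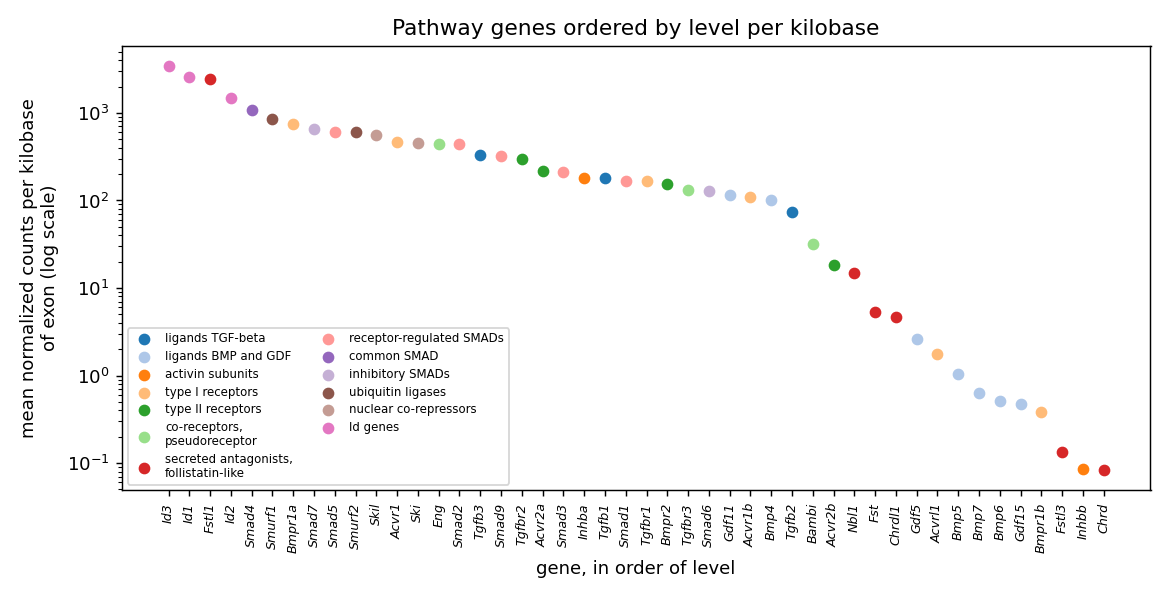
The 46 listed pathway genes in order of their mean normalized counts per kilobase of exon (log axis), coloured by role. *Id3* leads at 3425, followed by *Id1* at 2585 and *Fstl1* at 2464, an order of the latter pair that turns with the longest transcript, and after *Tgfb2* at 73.9 the levels fall away to 0.0828 for *Chrd*.

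Receptor-regulated SMADs, the transcription factors that receptors phosphorylate, were all expressed, at means from 1044 to 4529.8 normalized counts. In the BMP branch, *Smad5* had a mean of 4529.8 (610.5 per kilobase), *Smad9* 1735 (323 per kilobase) and *Smad1* 1044 (167 per kilobase). *Smad5* was 3.66-fold higher than *Smad1* per kilobase of all exons and 2.49-fold per kilobase of the longest transcript. In the TGF-β and activin branch, *Smad2* had a mean of 3871 (441 per kilobase) and *Smad3* 1176 (212 per kilobase), a 2.08-fold difference per kilobase. *Smad1* was the lowest of the 5 per kilobase of all exons, whereas per kilobase of the longest transcript *Smad3* was lowest, at 231 against 276 for *Smad1*. *Smad5* took 34.8% of the summed level of the 5 genes. The longest transcripts of the SMAD genes held no stretch of 100 bases in common with another gene.

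*Smad4*, the common partner of all receptor-regulated SMADs, had a mean of 4023 normalized counts. Per kilobase it reached 1084, above each of the receptor-regulated SMADs, and *Smad5*, the next, was 0.563-fold as high. Without scaling by length *Smad5* was 1.13-fold higher instead.

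Negative regulators inside the cell were also well expressed. *Smad7*, the inhibitory SMAD that acts on TGF-β and BMP receptors alike, had a mean of 2980.4 normalized counts (659 per kilobase). *Smad6*, which acts mainly on the BMP branch, had a mean of 411 (128 per kilobase). *Smad7* was 5.14-fold higher per kilobase. The ubiquitin ligase genes *Smurf1* and *Smurf2*, whose products mark SMADs and receptors for degradation, had means of 5417 (855 per kilobase) and 3708 (602 per kilobase). *Skil* and *Ski*, co-repressors that bind SMADs on DNA, had means of 5488 (566 per kilobase) and 2507 (451 per kilobase). *Smurf1* was 1.42-fold higher than *Smurf2* and *Skil* 1.26-fold higher than *Ski* per kilobase.

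Id genes were the highest group per kilobase. Their products bind basic helix-loop-helix factors and keep them from DNA. *Id3* had a mean of 6135 normalized counts and *Id2* one of 3619.8, and *Id1* was at 2999. As these transcripts are short, the levels per kilobase were 3425 for *Id3*, 2585 for *Id1* and 1485 for *Id2*. *Id3*, on chromosome 4 from 136143497 to 136145755, took 45.7% of their summed level. *Id1*, on chromosome 2 from 152736251 to 152737410, was 1.74-fold higher than *Id2* per kilobase and 0.828-fold as high without scaling. *Id3* was the highest of the 3 under both lengths and without scaling.

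**Figure D4:**
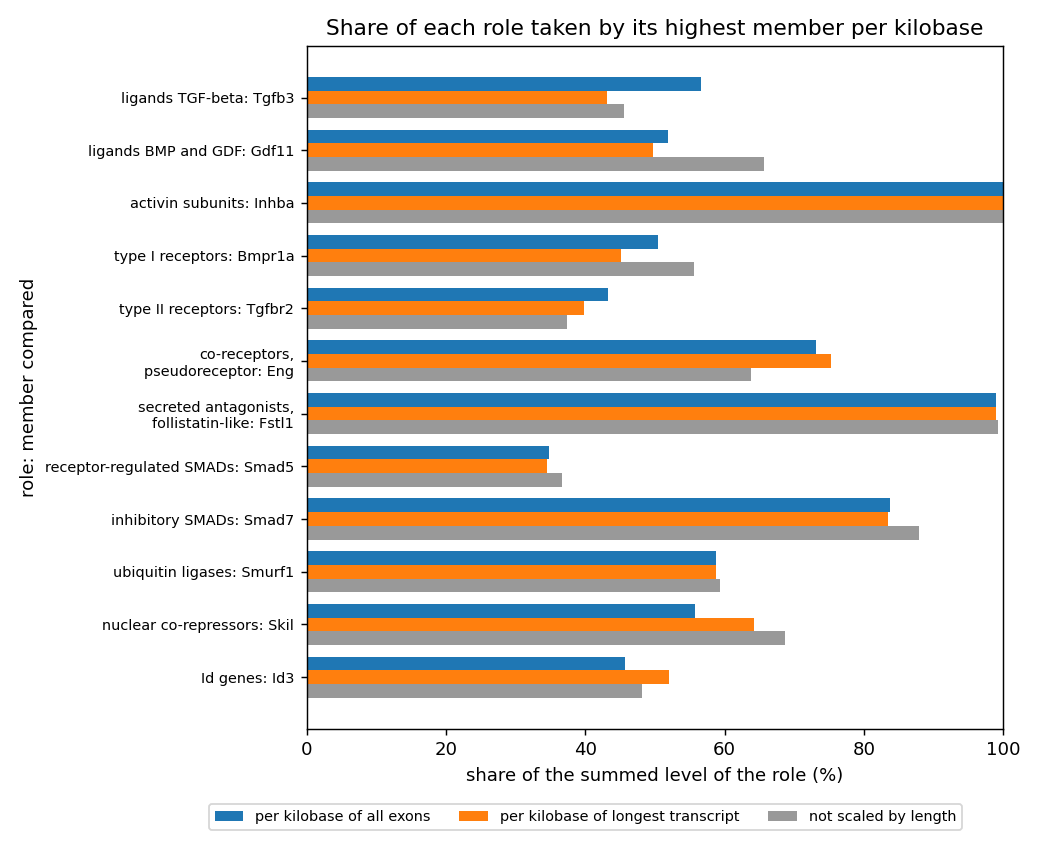
The share (%) of the summed level of each role that fell to its highest member per kilobase of all exons. Sums are over listed genes only. Bars are for all exons, for the longest transcript and for no scaling by length. *Inhba* and *Fstl1* take nearly the whole of their role under each, while the bar of *Tgfb3* falls from 56.6% to 43.2% with the longest transcript, under which *Tgfb1* is higher.

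A wider list of 77 further genes of the pathway was written from general knowledge, and 60 of them were in the table, of which 52, or 86.7%, were above the floor, against 75.8% of all listed genes. The counts of its smaller groups below stand beside that same share. All 11 listed genes of latent TGF-β storage and activation were above it, from *Lrrc32* at 9.23 to *Thbs1*, the gene of the TGF-β activator thrombospondin 1, at 22832 normalized counts. Of 8 listed further ligands, 4 were above the floor, with *Inhbe* highest at 83.9 and *Gdf9* lowest at 6.02. Of 5 further receptors and co-receptors 2 were above it, the BMP co-receptor genes *Rgmb* at 589 and *Rgma* at 184. Further secreted antagonists were above it in 6 of 7 cases, with *Twsg1*, the gene of twisted gastrulation, at 5197 normalized counts. All 18 listed intracellular regulators were above the floor, from *Tgif2* at 623 to *Strap* at 18729.7. The 11 target genes known in fibroblasts were all above it as well, and *Tagln*, the gene of the actin-binding protein transgelin, was the lowest of them at 160.5 normalized counts. Such levels do not show how far TGF-β signalling contributes to them.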

How the data were processed

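RNAseq was performed on 6 libraries of immortalized mouse fibroblasts, 3 *Ms4a15* OE and 3 control. The labels do not say whether replicates were separate cultures. According to the study's methods the authors aligned reads to mm10 with STAR, obtained read counts for UCSC genes from HTSeq-count and ran DESeq2. The submitters' processing notes also name TopHat, Cufflinks and Cuffdiff. Labels and methods differ in the RNA kit and the read length as well. The deposited signal used here is a per-gene mean of size-factor-normalized counts that pools the 6 libraries. The other columns hold the authors' own comparison of *Ms4a15* OE with control (log2 fold changes, standard errors, p-values and directions) and were not used. The planned test between groups needs counts per library and was not run.

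Genes were matched by symbol, and 25 symbols turned into calendar dates were left as they stood. The 6 commonest means below 0.2 were taken as 1 read in each library. Means of genes under the floor were taken apart into whole reads within 2e-08 per read, and this step, tested on simulated data of 14524 genes, recovered the reads of 200 of 200 genes with 2 to 15 reads. Exon lengths (union of exons or longest transcript) and stretches of 100 bases shared between genes came from GENCODE M21 on GRCm38. The 100 bases follow the read length in the study's methods, not that in the labels. For all 54 genes, values may be named, and for the wider lists the highest and lowest above the floor, apart from *Lum*, *Epcam*, *Pecam1* and *Cdh5*, named after their values were seen. Some genes of the wider lists are not reported here. Members and lists were chosen with earlier results of these data known. Python 3.11.15, numpy 2.4.6, pandas 2.3.3, scipy 1.17.1 and matplotlib 3.10.9 were used.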

Additional observations from a re-analysis of the deposited data

How the results depend on the processing

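No paired analysis was possible because the column used pools the replicates of both groups. For the same reason another count tool, no filter on counts, a replicate block and leaving out each replicate in turn were planned and not run. Of the 46 listed pathway genes 39 were above the floor, and 42, 36 and 32 had a mean of at least 1, 10 and 100 normalized counts, or 91.3%, 78.3% and 69.6%, against 83.8%, 67.7% and 54.7% of all listed genes. The median percentile of the pathway genes was 65.9 among all listed genes and 56.9 when genes at or under the floor were left out of both. Of the 12 roles with 2 or more listed genes, 11 kept their leading gene with the longest transcript as the length and 11 without scaling, the exceptions being the TGF-β ligands and the type II receptors, in that order. With the longest transcript, the share of its role was 43.2% for *Tgfb3*, 49.8% for *Gdf11*, 45.1% for *Bmpr1a*, 39.8% for *Tgfbr2*, 75.2% for *Eng*, 34.5% for *Smad5*, 64.3% for *Skil* and 52.0% for *Id3*. Without scaling, it was 45.6% for *Tgfb3*, 65.7% for *Gdf11*, 55.6% for *Bmpr1a*, 37.3% for *Tgfbr2*, 63.8% for *Eng*, 99.3% for *Fstl1*, 36.7% for *Smad5*, 87.9% for *Smad7*, 59.4% for *Smurf1*, 68.6% for *Skil* and 48.1% for *Id3*. All these shares are of the summed level of the listed genes of a role. The lengths account for the shifts between settings by construction. Depth limits the genes under the floor, whose levels rest on 2 to 15 reads in all.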
